A study of Homo sapiens with 12 samples.

Results

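ARID1A was put back into 293T cells that lack it, and this section describes what changed in their RNA when no EWS-FLI1 was present. The comparison took the 4 libraries whose labels state ARID1A-knockout 293T cells with the second vector empty, 2 given WT (wild-type) ARID1A and 2 given empty vector in its place, out of 12 libraries in 6 groups of 2. Every gene in the count files entered, 60645 gene names, of which 20377 passed a filter on low counts and were tested. 293T is a line derived from HEK-293 human embryonic kidney cells that carries the SV40 large T antigen, and all 12 libraries carry the ARID1A knockout, so no group holds unmodified cells. The 6 groups are no ARID1A (empty vector only), WT ARID1A and ΔIDR1b ARID1A, a form that lacks a stretch of one intrinsically disordered region, each overexpressed with an empty vector or with EWS-FLI1, the fusion oncoprotein of Ewing sarcoma. The treatment text, worded alike for all 12 libraries, those labelled empty vector included, gives 2 µg of the EWS-FLI1 plasmid and 48 h of growth. The amounts of empty vector and ARID1A plasmid, the promoter that drives it and whether the knockout line is a single clone are not given in the sources used here. Groups below are called no ARID1A and WT, and the 4 libraries no-ARID1A 1, no-ARID1A 2, WT 1 and WT 2.

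SWI/SNF complexes use ATP to slide and evict nucleosomes and so keep enhancers and promoters open. ARID1A is the subunit that, in alternation with its paralog ARID1B, defines the canonical BAF form of the complex, and its gene is among the chromatin regulators most often inactivated in carcinomas, above all of the ovary and endometrium. ARID1A-containing BAF is known for acting at enhancers bound by AP-1 and TEAD factors, for opposing Polycomb complexes, which silence developmental genes such as the HOX clusters, and for holding back the Hippo pathway effectors YAP and TAZ, coactivators of TEAD.

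RNA was enriched for polyA tails, and fragments were counted per gene without regard to strand. The 4 libraries held between 13613966 and 14445379 counts, within the range of 11702251 to 14445379 over all 12. Levels are given as CPM, counts scaled to library sizes that carry edgeR's TMM factors, and 3 counts, the most that a count of 0 allows, correspond to 0.223 to 0.224 CPM in these libraries. The spread between the libraries of a group exceeded sampling noise in every group, with a chi-square per degree of freedom of 3.87 for no ARID1A and 5.96 for WT. Markers of the labelled line were present: of 11 genes typical of HEK-293 cells, among them NEFL, KRT8 and VIM, 10 reached 1 CPM and the sum was 1151 to 1179 CPM without ARID1A and 1232 to 1318 CPM with WT. The squamous markers KRT5, KRT14, TP63 and KRT6A summed to at most 1.27 CPM in any of the 4 libraries, and those of blood, endothelium and liver to at most 6.69, 1.94 and 1.42 CPM. Of 6 fibroblast markers 3 reached 1 CPM, with sums of 93.2 to 98.2 CPM without ARID1A and 107 CPM in both WT libraries. The labels number the libraries as repeats without saying that they were separate cultures, so the p-values measure the spread between these libraries, which may be technical.

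ARID1A itself (chromosome 1, 26693236 to 26782104 on GRCh38, as are all positions below) was compared first. Its count joins transcripts of the endogenous gene with those of the plasmid. It stood at 165 and 147 CPM without ARID1A and 2038 and 2074 CPM with WT, a 13.2-fold rise (log2 fold change 3.72, SE 0.10, adjusted p = 8.39e-24). This p, like each adjusted p below, is from edgeR's quasi-likelihood test, 2-sided, with Benjamini-Hochberg adjustment across the 20377 genes. Both WT libraries lay far above both no-ARID1A libraries, as the labels state. The knockout cells still gave counts over the gene, and the position of the edit is not in the count files, so the level without ARID1A is no test of the knockout. With EWS-FLI1 the log2 fold change was 3.69, and the ΔIDR1b form with the empty vector reached a mean of 2787 CPM.

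Restoring WT ARID1A changed 2381 of 20377 genes (11.7%), of which 1324 (6.5%) were higher and 1057 (5.19%) lower. Most of the changes were modest: the median rise among genes called higher was 1.44-fold and the median fall among those called lower 1.73-fold, while 152 genes rose and 369 fell by at least 1 on the log2 scale. The genes that rose were almost all protein coding (97.0%), and those that fell were more mixed, with 62.8% protein coding and 261 long noncoding RNAs. The median over all genes tested was -0.01, which, with the 11.7% of genes called, is the baseline for every list below. In a bulk sample, fewer cells that express a gene and less RNA of it per cell cannot be told apart, and the share of cells that took up the plasmid is not given.

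The size of these counts depended on the fit. Upper-quartile scaling, which moved the median over all genes to -0.07, gave 898 genes higher and 1381 lower, so the balance of rises and falls depended on the scaling. Leaving out no-ARID1A 1 left 1106 genes, no-ARID1A 2 left 814, WT 1 left 802 and WT 2 left 1436, in fits where the lone library of a group is taken to vary like those of the other groups. With offsets for trends in GC content and length 3862 genes changed, 2265 higher and 1597 lower. With the repeat numbers as a block within each vector 3606 changed, 2056 higher and 1550 lower.

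**Figure D1:**
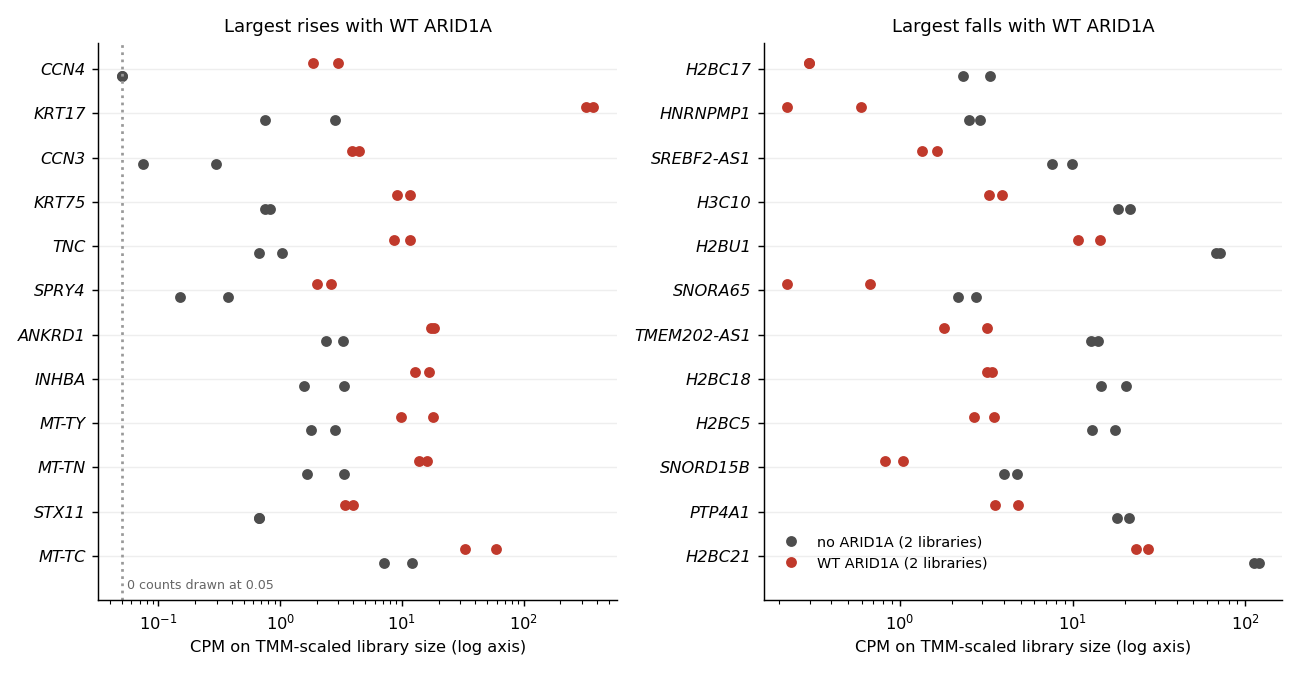
CPM on TMM-scaled library sizes (log axis) in each of the 2 no-ARID1A and 2 WT libraries, for the 12 genes with the largest rise (left) and the 12 with the largest fall (right) among genes that changed the same way with EWS-FLI1. Each point is 1 library, and 0 counts are drawn at 0.05. Only genes in which the libraries of the groups do not overlap could enter. KRT17 rose from at most 2.84 to at least 324 CPM, and H2BC21 fell from at least 113 to at most 27.3 CPM.

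The largest rise in an abundant gene was that of KRT17 (chromosome 17, 41619442 to 41624842), a type I keratin of basal and activated epithelium. It stood at 0.743 and 2.84 CPM without ARID1A and 373 and 324 CPM with WT, a 194-fold rise (log2 fold change 7.60, SE 0.23, adjusted p = 6.72e-23). The type II keratin KRT75 (chromosome 12, 52424070 to 52434371), known from the hair follicle, went from 0.743 and 0.823 to 11.8 and 9.04 CPM (log2 fold change 3.72, SE 0.32, adjusted p = 3.75e-10). The basal keratin gene KRT5 had 0 counts in both no-ARID1A libraries and 1 count over both WT libraries. Per length, KRT17 reached 116 FPKM, a level scaled by library size and gene length, with WT, beside 46.4 FPKM for KRT8, the simple-epithelium keratin these cells already made. Of 25 tested epithelial junction and keratin genes, 5 rose and 0 fell (20% of the list beside 11.7% of all genes, median 0.27). Besides KRT17 these were KRT8 (log2 fold change 0.44), the desmosome genes DSP (0.35) and JUP (0.36), and GRHL1 (1.58), a transcription factor of epithelial differentiation, from 2.16 and 1.94 to 6.18 and 6.13 CPM. Epithelial cadherin, CDH1, stood at a log2 difference of 0.28 and was not called. KRT8 lost its call without no-ARID1A 2 (0.104) and without WT 1 (0.245). The calls of DSP and JUP were lost with upper-quartile scaling (0.0527 and 0.0671) and without 3 of the 4 libraries, left out one at a time, and the list gave 3, 2, 3 and 4 rises when no-ARID1A 1, no-ARID1A 2, WT 1 and WT 2 were left out in turn, the order used for all such counts below.

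Of the CCN genes, which encode secreted matricellular proteins and were grouped here after their values were seen, CCN1 to CCN4 were tested and each rose, while CCN5 and CCN6 did not pass the filter on low counts. CCN3 and CCN4 passed it only through groups where they were high, so the count supports nothing about the family. CCN4 had 0 counts in both no-ARID1A libraries and 65 counts over both WT libraries (1.86 and 2.99 CPM), at least 21.7-fold higher than 3 counts over the group (adjusted p = 9.69e-06). CCN3 went from 0.0743 and 0.299 to 4.46 and 3.88 CPM (log2 fold change 4.42, SE 0.53, adjusted p = 4.06e-07). CCN1 (chromosome 1, 85580761 to 85584589), the abundant member in these cells, went from 354 and 341 to 607 and 534 CPM, 1.64-fold (log2 fold change 0.72, SE 0.10, adjusted p = 1.30e-05). CCN2, named after its values were seen, went from 5.65 and 9.42 to 18.2 and 14.5 CPM (log2 fold change 1.11, SE 0.23, adjusted p = 0.00134) and lost the call without no-ARID1A 1 (0.0742) and without WT 1 (0.0518). The rises of CCN1, CCN3 and CCN4 were called in every alternative run.

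CCN1 and CCN2 are the textbook targets of YAP and TEAD. Of 27 YAP/TEAD targets tested, 11 rose and 0 fell, 40.7% of the list against 11.7% of all genes, with a median of 0.34. ANKRD1 (chromosome 10, 90912096 to 90921087), a muscle ankyrin repeat protein and a standard YAP reporter, rose most, from 3.27 and 2.39 to 18.4 and 17.5 CPM (log2 fold change 2.66, SE 0.23, adjusted p = 4.42e-10). FJX1, a Golgi protein kinase-like factor of planar polarity signalling, went from 7.06 and 8.23 to 17.7 and 16.2 CPM (log2 fold change 1.15). RND3, a small GTP-binding protein, went from 32.6 and 29.8 to 56 and 49.5 CPM (0.76). AMOTL2 stood at 0.21, LATS2 at 0.27 and AJUBA at -0.19 without being called. Leaving out each library gave 8, 6, 7 and 8 rises and 0 falls each time. With EWS-FLI1 present, in 4 other libraries, 10 of the list were called higher and 0 lower.

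The promoters of some of these genes are shown because they hold the sequence that TEAD factors bind, searched as GGAATG on both strands in the 250 bases before each gene's start (RefSeq, GRCh38.p14; all 4 promoters shown are on the minus strand and are written 5′ to 3′ in the direction of the gene, with the match in capitals). ANKRD1 (chr10:90921088-90921337) has 2 matches, CCN2 (chr6:131951373-131951622) has 3 and KRT75 (chr12:52434372-52434621) has 1.
ANKRD1: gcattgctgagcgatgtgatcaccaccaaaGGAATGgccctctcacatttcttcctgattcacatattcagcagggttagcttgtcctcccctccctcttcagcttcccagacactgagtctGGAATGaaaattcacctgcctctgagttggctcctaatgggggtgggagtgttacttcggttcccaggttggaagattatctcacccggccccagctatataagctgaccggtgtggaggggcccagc
CCN2: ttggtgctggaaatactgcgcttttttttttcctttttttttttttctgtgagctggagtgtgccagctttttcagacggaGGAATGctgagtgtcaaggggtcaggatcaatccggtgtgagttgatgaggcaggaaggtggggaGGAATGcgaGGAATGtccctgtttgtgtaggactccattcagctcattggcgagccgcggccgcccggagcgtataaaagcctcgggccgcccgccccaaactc
KRT75: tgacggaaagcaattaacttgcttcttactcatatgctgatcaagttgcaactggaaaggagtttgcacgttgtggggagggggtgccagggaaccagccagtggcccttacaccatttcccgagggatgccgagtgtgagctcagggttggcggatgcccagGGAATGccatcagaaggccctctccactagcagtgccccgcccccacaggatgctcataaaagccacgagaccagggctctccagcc

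These promoters are examples and not typical of the genes that rose. Of the 12582 tested genes whose promoter RefSeq gave, 9.35% held the TEAD letters, against 9.17% of the 1047 promoters of genes called higher and 10.9% of the 642 of genes called lower. The AP-1 site TGANTCA was in 3.95% of all promoters, 5.06% of those of genes higher and 4.98% of those of genes lower. The promoters of CCN1 and KRT17 were not in the table used. A match is a string of letters and not a measured binding site, and enhancers, which lie outside these windows, were not searched.

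Genes that feed back on ERK signalling, which are induced when the MAP kinase cascade is active, had several rises. Of 15 tested, 8 rose and 0 fell (53.3% of the list), and the median of 0.76 was the highest of all lists examined. In a fit of only the libraries compared, the median was 0.70 over 14 genes. SPRY4, with 5 and 2 counts without ARID1A, passed the filter on low counts through groups where it was high. SPRY4 (chromosome 5, 142310427 to 142326455), an inhibitor of receptor tyrosine kinase signalling, went from 0.372 and 0.15 to 2.6 and 2.02 CPM (log2 fold change 3.10, SE 0.55, adjusted p = 2.29e-04). The ETS factor ETV5 went from 1.78 and 1.27 to 5.36 and 5.15 CPM (1.78). DUSP5, a nuclear ERK phosphatase, rose from 22.2 and 18.5 to 42.5 and 40.6 CPM (1.03). The receptor EPHA2 rose from 29.2 and 33.4 to 60.6 and 56.6 CPM (0.91). In each of these 4 genes both WT libraries lay above both no-ARID1A libraries, which adds no support to calls made on the same libraries. SPRY1 (-0.19), SPRY2 (0.36) and ETV4 (0.48) were not called, nor was DUSP6 (2.32, adjusted p = 0.101), which stayed at or below 0.67 CPM in all 4 libraries. The list gave 5 rises without each of the 4 libraries, and with EWS-FLI1 10 of it were called higher and 1 lower.

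AP-1 and other immediate early factors split in opposite directions. Of 28 tested, 12 rose and 8 fell, 71.4% of the list, with a median of 0.24. FOS (chromosome 14, 75278826 to 75282230) fell from 191 and 181 to 72.1 and 64.5 CPM, 2.72-fold (log2 fold change -1.44, SE 0.11, adjusted p = 2.16e-11). The nuclear receptors NR4A2 and NR4A1 fell too, NR4A2 from 47.1 and 42.1 to 14.2 and 14.7 CPM (-1.62) and NR4A1 from 84 and 88.6 to 55.1 and 50.7 CPM (-0.71). JUND, a JUN-family subunit of AP-1, fell from 814 and 766 to 599 and 503 CPM (-0.52), and lost the call without WT 2 (0.0807). On the other side, ATF3, a stress-induced AP-1 partner, rose from 904 and 816 to 1401 and 1378 CPM (log2 fold change 0.69, SE 0.09, adjusted p = 2.30e-06). The small MAF factor MAFG rose from 49.7 and 45.9 to 95.7 and 92 CPM (0.97). SRF, the serum response factor, rose from 99.8 and 106 to 160.3 and 153 CPM (0.60). The antiproliferative factor BTG2 rose from 15.8 and 15.9 to 29.2 and 27.3 CPM (0.84). Within the FOS family the direction differed by member: FOS and FOSB fell (-1.44 and -1.05) while FOSL1 rose (1.16), FOSB and FOSL1 being named after their values were seen. FOSB lost its call without no-ARID1A 1 (0.064), and FOSL1 without no-ARID1A 1 (0.0757) and without WT 1 (0.155). Without each library in turn there were 11, 9, 8 and 11 rises and 6, 6, 7 and 4 falls.

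**Figure D2:**
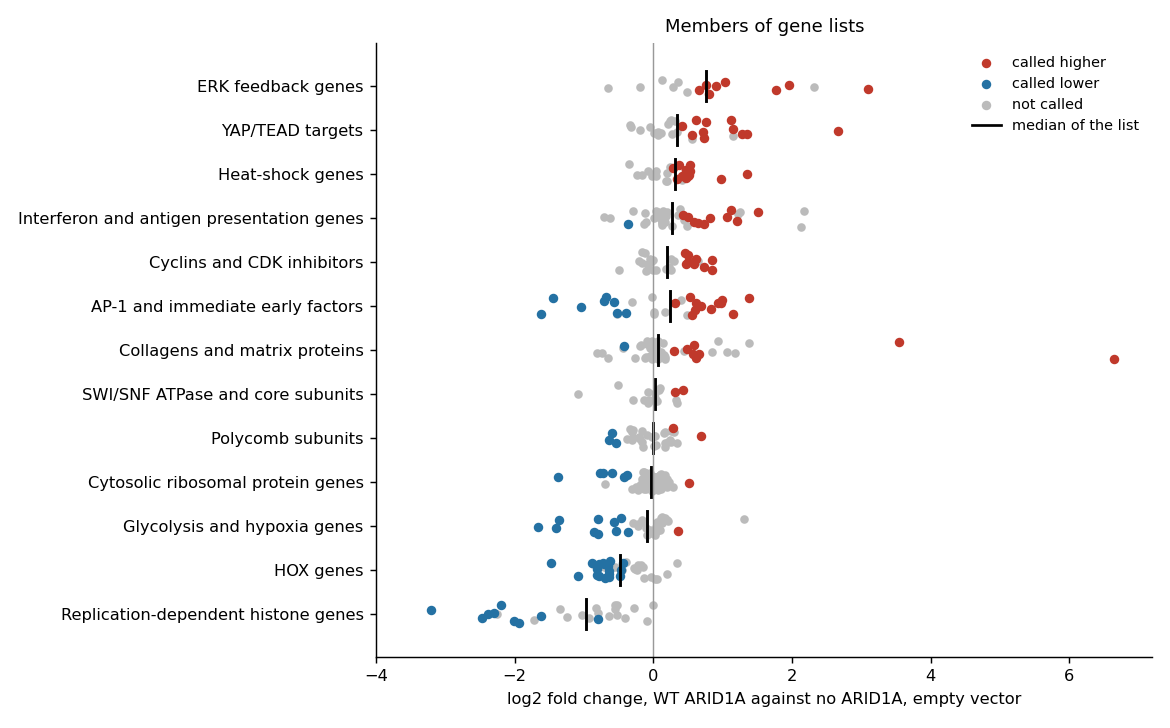
Log2 fold change of WT against no ARID1A with the empty vector for each tested member of 13 gene lists. Each point is 1 gene, red where called higher, blue where called lower and grey where not called (edgeR, adjusted p of 0.05), and the black bar is the median of the list. ERK feedback genes have the highest median (0.76) and replication-dependent histone genes the lowest (-0.98), and members called in both directions stand side by side in the AP-1 and immediate early list.

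Genes of the extracellular matrix rose in part. Of 43 collagen and matrix genes tested, 8 rose and 1 fell (20.9% of the list beside 11.7% of all genes). The median of 0.07 was close to that of all genes. TNC (chromosome 9, 115019575 to 115118257), tenascin-C, a matrix protein of developing and healing tissue, went from 1.04 and 0.673 to 11.7 and 8.59 CPM, 11.7-fold (log2 fold change 3.55, SE 0.30, adjusted p = 3.75e-10). FN1, fibronectin, rose from 187 and 186 to 265 and 291 CPM (0.57). The microfibril gene FBN2 rose from 57.4 and 51.8 to 82.8 and 81.8 CPM (0.59), and AGRN, agrin, from 65.3 and 60.9 to 101 and 93 CPM (0.62). The laminin chain LAMA3 was the 1 gene called lower (-0.43) and lost the call without no-ARID1A 1 (0.108), without no-ARID1A 2 (0.104) and without WT 1 (0.331). TIMP3 (chromosome 22, 32801705 to 32863041), a matrix-bound inhibitor of metalloproteinases outside that list, rose from 53.9 and 54.7 to 128 and 115 CPM (log2 fold change 1.16, SE 0.11, adjusted p = 3.01e-09). The actin cross-linker FLNC (chromosome 7, 128830406 to 128859274) rose from 260.5 and 254 to 591 and 585 CPM (log2 fold change 1.19, SE 0.10, adjusted p = 4.89e-10). In all of these except LAMA3, the rise was called in every alternative run. The 4 fits with 1 library left out gave 6, 5, 6 and 6 rises.

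Of 26 integrins and cadherins 7.69% were called, beside 11.7% of all genes. ITGA5, the fibronectin receptor chain, rose (0.47) and ITGA4 fell (-0.72), with a median of 0.20. ITGA5 lost the call without no-ARID1A 1 (0.0969) and without WT 1 (0.124), and ITGA4 without no-ARID1A 1 (0.0782), without no-ARID1A 2 (0.0696) and without WT 1 (0.259). Of 23 mesenchymal factors tested, 2 rose and 3 fell (21.7% of the list, median -0.08). CNN1, a calponin of smooth muscle, had 3 counts over both no-ARID1A libraries and 46 over both WT libraries, a ratio of 15.3 (95% counting interval 4.93 to 77.1, which covers counting error only), but stood at 0.23 with EWS-FLI1 (adjusted p = 0.871). CNN1 was picked for that gap in counts, so a large ratio was fixed by the choice. ZEB1 rose (0.52), while the lysyl oxidase LOX (-0.48) and the factors TWIST1 (-0.44) and SNAI2 (-0.43) fell. Under the alternatives, ZEB1 lost the call without no-ARID1A 1 (0.0645), without no-ARID1A 2 (0.0883) and without WT 1 (0.146). LOX lost it in the DESeq2 test (0.0967), without no-ARID1A 1 (0.0519), without no-ARID1A 2 (0.0886) and without WT 1 (0.167), TWIST1 without no-ARID1A 2 (0.351), without WT 1 (0.0963) and without WT 2 (0.167) and SNAI2 without no-ARID1A 1 (0.147), without no-ARID1A 2 (0.102), without WT 1 (0.0969) and without WT 2 (0.17).

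Of 50 TGF-β and BMP pathway genes tested, 8 rose and 6 fell (28% of the list beside 11.7% of all genes, median 0.14). The rises included 5 ligand genes (INHBA, GDF15, TGFB2, BMP6 and INHBB), and the falls were ID2, ID3, NOG, SMAD6, SMAD7 and LTBP2. TGFB2, INHBB, SMAD7 and LTBP2 were named after their values were seen, and TGFB2 lost its call without no-ARID1A 1 (0.266), without no-ARID1A 2 (0.0533), without WT 1 (0.0898) and without WT 2 (0.153). Among ligands, INHBA (chromosome 7, 41667168 to 41705834), which encodes the activin A subunit, went from 3.35 and 1.57 to 16.6 and 12.9 CPM, 5.98-fold (log2 fold change 2.58, SE 0.27, adjusted p = 3.33e-08). BMP6 rose from 17.9 and 21.5 to 42.3 and 36.1 CPM (0.99), and the stress cytokine GDF15 from 4.91 and 5.91 to 15.3 and 11.1 CPM (1.29). The signal transducer SMAD5 rose by 0.53. Among targets and inhibitors, ID3 fell from 216 and 199 to 122.7 and 93.5 CPM (log2 fold change -0.94, SE 0.12, adjusted p = 9.21e-07). ID2 fell from 275 and 255 to 160.3 and 150.0 CPM (-0.77). The BMP antagonist NOG, noggin, fell from 60.1 and 46.4 to 19 and 21.5 CPM (-1.39), and the inhibitory SMAD6 from 65 and 74.9 to 37.9 and 34.5 CPM (-0.95). For the 8 genes given with a value the call held in every alternative. Dropping the libraries one by one gave 6, 4, 5 and 6 rises and 6, 5, 6 and 5 falls.

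Of 28 Notch pathway genes tested, 5 rose and 3 fell (28.6% of the list beside 11.7% of all genes, median 0.08). The receptors NOTCH3 (47.1 and 47.8 to 85.4 and 76.1 CPM, 0.77), NOTCH1 (45.1 and 44 to 80.1 and 68.4 CPM, 0.74) and NOTCH2 (0.49) and the ligands DLL4 (1.35) and JAG1 (0.75) rose. The 3 that fell were the target repressors HEY1, from 314 and 277 to 197 and 194 CPM (-0.60), HES4, from 487 and 459 to 334 and 253 CPM (-0.69), and HES1 (-0.55). NOTCH3, NOTCH1 and HEY1 held in every alternative, while NOTCH2 and HES4 lost the call without WT 2 (0.0574 and 0.0512), DLL4 without WT 1 (0.0522), HES1 without no-ARID1A 1 (0.0621) and without WT 1 (0.0616), and JAG1 without any 1 of the 4. Of 27 Wnt targets and feedback genes, 5 rose and 0 fell (18.5% of the list, median 0.20): the cyclin genes CCND1 and CCND2, MYC, AXIN2 and NKD2. CCND2 lost the call without no-ARID1A 2 (0.152) and without WT 2 (0.0549). NKD2, a negative regulator of Wnt signalling, rose from 30.9 and 33.4 to 61.9 and 53.5 CPM (log2 fold change 0.84, SE 0.13, adjusted p = 1.87e-05). AXIN2, the common readout of β-catenin activity, stood at 6.69 and 7.7 CPM without ARID1A and 11.4 and 11.8 CPM with WT (0.69, adjusted p = 0.0315), and its call was lost with upper-quartile scaling (0.0541) and without any 1 library.

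Both cyclin and CDK inhibitor genes were among those that rose. Of 28 cyclins, CDKs, CDK inhibitors and E2F factors, 9 rose and 0 fell (32.1% of the list, median 0.20). The G1 cyclin gene CCND1 (chromosome 11, 69641156 to 69654474) rose from 16.2 and 17.7 to 32.7 and 28.6 CPM (log2 fold change 0.85, SE 0.15, adjusted p = 1.39e-04), and the transcription factor E2F3 from 30.4 and 31 to 45 and 48.7 CPM (0.61). The CDK inhibitors CDKN1A (p21) and CDKN2B (p15) rose as well, CDKN1A from 63.9 and 63.7 to 96.6 and 94.6 CPM (0.58) and CDKN2B from 10.9 and 8.6 to 17.6 and 17.4 CPM (0.85). CDKN2B lost the call without no-ARID1A 2 (0.0826). The mitotic cyclins were not called, with CCNA2 at -0.20, CCNB1 at -0.03 and CCNB2 at -0.16. Upper-quartile scaling gave 9 rises and 1 fall, and leaving out the libraries 9, 3, 5 and 7 rises. Among 36 DNA replication genes 5 rose and 2 fell (19.4% of the list beside 11.7% of all genes), against 13 rises and 3 falls with GC and length trends removed and 10 rises and 2 falls with a replicate block within each vector. The flap endonuclease FEN1 rose most, from 70.4 and 66.3 to 139 and 124 CPM (log2 fold change 0.95, SE 0.11, adjusted p = 1.21e-07). The origin-firing and helicase genes MCM10 (0.58), CDC6 (0.53), MCM6 (0.50) and GINS3 (0.58) followed, where MCM6 lost the call without no-ARID1A 2 (0.0583) and GINS3 without no-ARID1A 2 (0.241) and without WT 1 (0.173), while TYMS (-0.44) and POLA2 (-0.39) fell. In TYMS and POLA2, 47.9% and 40.03% of the exonic bases overlap other genes, and both lost the call without at least 3 of the 4 libraries.

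The lowest median of any list, -0.98, was that of the replication-dependent histone genes. Of 65 such genes 26 were tested, of which 0 rose and 9 fell, 34.6% of those tested. H2BC17, with 4 counts in each WT library, passed the filter on low counts through the groups where it was high. The count and the median may therefore lean towards falls. In a fit of only the libraries compared, the median was -1.48 over 20 genes. H2BC21 (chromosome 1, 149884459 to 149886682), the most abundant of the named ones by counts, fell from 113 and 120.0 to 27.3 and 23.3 CPM, 4.6-fold (log2 fold change -2.20, SE 0.17, adjusted p = 2.16e-11). The linker histone gene H1-2 fell from 42.2 and 36.1 to 12.9 and 12.7 CPM (-1.61), H3C10 from 21.4 and 18.4 to 3.27 and 3.88 CPM (-2.47) and H2BC18 from 14.6 and 20.3 to 3.2 and 3.44 CPM (-2.39). H2BC5 and H2BC17 fell by more than 2 on the log2 scale as well (-2.30 and -3.21), as did H2BU1 (67.5 and 71.1 to 10.8 and 14.3 CPM, -2.46), an H2B gene outside the list. Summed over all 65 genes the level was 285 CPM in both no-ARID1A libraries and 90.4 and 74.9 CPM in the WT libraries. Leaving out the libraries gave 8, 9, 9 and 8 falls, and with GC and length trends removed 8 fell.

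The promoter of H2BC21 (chr1:149886683-149886932) is shown because it holds the octamer ATTTGCAT, the sequence through which H2B promoters are known to be activated in S phase, in capitals.
H2BC21: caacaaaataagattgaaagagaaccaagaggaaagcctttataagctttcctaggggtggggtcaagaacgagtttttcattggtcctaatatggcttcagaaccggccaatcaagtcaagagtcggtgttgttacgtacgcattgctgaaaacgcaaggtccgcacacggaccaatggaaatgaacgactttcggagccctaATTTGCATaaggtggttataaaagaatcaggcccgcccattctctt

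The octamer was in 1.35% of all 12582 promoters, 1.15% of those of genes called higher and 2.02% of those of genes called lower, and in 1.11% of the last set once the replication-dependent histones were removed. Transcripts of these histone genes normally end in a stem-loop without a polyA tail, and small nucleolar RNAs also lack one. Small nucleolar and Cajal body RNAs, 841 gene names, summed to 311 and 298 CPM without ARID1A and 171 and 192 CPM with WT. Only 93 passed the filter and were tested, of which 0 rose and 17 fell (18.3% beside 5.19% of all genes called lower, median -0.71). Members high only without ARID1A could pass the filter, so this count and median may lean towards falls too. SNORA65 and SNORD15B, both guides of ribosomal RNA modification, fell by 2.43 and 2.23 on the log2 scale. With 3 and 9 counts in the WT libraries, SNORA65 passed the filter through the groups where it was high. SNORA65 lost the call without no-ARID1A 1 (0.0955) and without WT 1 (0.19), and SNORD15B without no-ARID1A 2 (0.076), without WT 1 (0.0541) and without WT 2 (0.0665). The part of RNA selection in the fall of the histone counts was not tested.

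HOX genes, which set positional identity and are classical Polycomb targets, were lower in many cases. Of 37 tested, 0 rose and 18 fell (48.6% of the list against 5.19% of all genes called lower), and 33 of 37 had a negative log2 fold change (median -0.49). HOXA13 (chromosome 7, 27193503 to 27200091) fell from 90.3 and 81.9 to 27.7 and 34.1 CPM, 2.79-fold (log2 fold change -1.48, SE 0.15, adjusted p = 7.85e-09). HOXB2 fell from 47.4 and 47.4 to 22.2 and 22.4 CPM (-1.09), HOXB6 from 73 and 75.5 to 39.9 and 40.7 CPM (-0.88) and HOXD11 from 63.6 and 77.6 to 43.2 and 38.4 CPM (-0.79). These 4 held in every alternative. The falls came from all 4 clusters, and HOXB4 (0.34), HOXB9 (0.02), HOXA3 (0.05) and HOXD12 (0.20), the genes with a positive value, were not called. HOXA-AS3 (chromosome 7, 27129977 to 27155928), a noncoding RNA antisense to the HOXA cluster, fell from 85.9 and 92.7 to 22.8 and 23.3 CPM (log2 fold change -1.95, SE 0.13, adjusted p = 3.84e-12). Since 39.3% of its exonic bases overlap other genes and counting ignored strand, its reads and those of its neighbours cannot be told apart. Without each library in turn there were 12, 8, 7 and 9 falls, and 17 of the list were called lower with EWS-FLI1. Clustered protocadherin genes, the other large cluster family examined, gave 0 calls among 13 tested of 54 (beside 11.7% of all genes called). Their median was -0.39 with 12 of 13 below 0, and the median share of overlapped exonic bases was 43.3%. The 0 calls therefore do not show that this family was unchanged.

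Of 33 glycolysis and hypoxia genes, 1 rose and 10 fell (33.3% of the list beside 11.7% of all genes, median -0.09). ADM (chromosome 11, 10305073 to 10307397), adrenomedullin, a secreted peptide induced by HIF, fell from 376 and 354 to 130.3 and 154 CPM (log2 fold change -1.36, SE 0.15, adjusted p = 4.93e-08). The HIF target ANKRD37 fell from 158 and 163 to 54.8 and 66.6 CPM (-1.41), and the glucose transporter SLC2A3 from 354 and 376 to 201 and 217 CPM (-0.80). ALDOA, the glycolytic aldolase, fell from 225 and 237 to 68.7 and 76.9 CPM (log2 fold change -1.67, SE 0.12, adjusted p = 8.39e-12), but 54.2% of its exonic bases, and 40.3% of those of ANKRD37, overlap other genes. GAPDH (-0.16), PGK1 (0.11), LDHA (0.21) and PKM (0.06) were not called. HK2, the 1 gene called higher (0.35), lost the call in the DESeq2 test (0.0543), with upper-quartile scaling (0.0996), without no-ARID1A 1 (0.0858), without no-ARID1A 2 (0.271) and without WT 2 (0.382). The 4 fits with 1 library left out gave 8, 9, 7 and 10 falls.

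Of 26 heat-shock genes 13 rose and 0 fell (50% of the list, median 0.31). HSP90AA1 (chromosome 14, 102080742 to 102139699), the inducible HSP90, rose from 2606 and 2678 to 3721 and 3607 CPM (log2 fold change 0.47, SE 0.09, adjusted p = 3.10e-04), HSPA4 from 241 and 217 to 338 and 324 CPM (0.53) and the endoplasmic reticulum chaperone HSPA5 from 2089 and 2204 to 3092 and 2842 CPM (0.47). The small heat-shock gene HSPB8 rose most, from 14.2 and 14.7 to 37.3 and 36.6 CPM (log2 fold change 1.36, SE 0.15, adjusted p = 1.40e-07). With upper-quartile factors the list gave 8 rises and 1 fall. Dropping the libraries one by one gave 6, 6, 6 and 10 rises. With EWS-FLI1 the list gave 7 rises and 4 falls.

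Targets of ATF4, the transcription factor of the integrated stress response, moved both ways. Of 29 tested, 9 rose and 4 fell (44.8% of the list beside 11.7% of all genes, median 0.09). CHAC1, which degrades glutathione, rose from 5.43 and 3.44 to 21.9 and 13.1 CPM (log2 fold change 1.98, SE 0.29, adjusted p = 1.84e-05). The amino acid transporter SLC7A5 rose from 169 and 161 to 259.7 and 256 CPM (0.65), and the stress sensor SESN2 from 49.96 and 44 to 85.3 and 78.7 CPM (0.80). DDIT4, an inhibitor of mTORC1 that is also induced by hypoxia, fell from 1469 and 1321 to 720.0 and 743 CPM (log2 fold change -0.93, SE 0.11, adjusted p = 1.44e-07). PPP1R15A, which restarts translation after stress, fell from 428 and 413 to 247 and 259 CPM (-0.74), and SLC3A2, the partner chain of SLC7A5, from 424 and 419 to 297 and 272 CPM (-0.57). The partner genes SLC7A5 and SLC3A2 changed in opposite directions. Leaving out the libraries gave 5, 5, 6 and 6 rises and 3, 4, 3 and 4 falls.

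Interferon-induced and antigen presentation genes rose in part: of 37 tested, 10 rose and 1 fell (29.7% of the list beside 11.7% of all genes, median 0.27). With GC and length trends removed there were 18 rises and 2 falls. IFIT2 (chromosome 10, 89283694 to 89309271), an antiviral RNA-binding protein, rose from 36.9 and 35 to 86.4 and 79.3 CPM (log2 fold change 1.20, SE 0.11, adjusted p = 3.51e-09) and IFIT3 from 72.7 and 61.3 to 114 and 108 CPM (0.73). ISG20 (1.06) and IFI27 (1.52) rose from low levels, IFI27 from 1.64 and 2.39 to 6.1 and 5.45 CPM. The chemokine CCL5 (chromosome 17, 35871491 to 35880793), outside the list, went from 27.4 and 30.4 to 105 and 81.6 CPM (log2 fold change 1.69, SE 0.13, adjusted p = 2.16e-11). The interferon gene IFNL1 had 3 counts over both no-ARID1A libraries and 42 over both WT libraries, a ratio of 14 (95% counting interval 4.47 to 70.6). IFNL1 was picked for that gap, so a large ratio was fixed by the choice. Its call was lost without no-ARID1A 2 and without WT 1. HLA-B (0.12) and B2M (0.17), a class I heavy chain and its light chain, were not called, nor was ISG15 (0.01), and STAT2 was called lower (-0.37), a call lost with no filter on low counts (0.0788), without no-ARID1A 1 (0.128), without no-ARID1A 2 (0.215), without WT 1 (0.255) and without WT 2 (0.0925). Without each library in turn there were 6, 4, 4 and 7 rises.

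Of 17 ATPase and core subunits of SWI/SNF, 2 rose and 0 fell (11.8% of the list, the share of all genes being 11.7%): BCL7A, from 71.6 and 59.2 to 87.2 and 88.9 CPM (0.43, adjusted p = 0.0132), and SMARCD2, from 126 and 134 to 163 and 161 CPM (0.32, adjusted p = 0.035). The ATPase SMARCA4 stood at 0.10 and the core subunits SMARCB1 and SMARCC1 at -0.13 and -0.08, not called. Of 11 subunits that define BAF, PBAF or ncBAF other than ARID1A, the paralog ARID1B (chromosome 6, 156776020 to 157210779) fell from 140.1 and 132 to 89.9 and 109 CPM, 1.37-fold (log2 fold change -0.45, SE 0.11, adjusted p = 0.00468), and DPF2 rose (0.35, adjusted p = 0.0193). ARID1B was lower with EWS-FLI1 as well (-0.55, adjusted p = 3.62e-04) and lost its call without no-ARID1A 1 (0.0798) and without WT 1 (0.181). BCL7A lost its call without no-ARID1A 2 (0.285), without WT 1 (0.0775) and without WT 2 (0.0722). SMARCD2 and DPF2 lost theirs with upper-quartile scaling (0.106 and 0.0631) and without any 1 of the 4 libraries.

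Of 32 Polycomb subunits 2 rose and 3 fell, 15.6% of the list beside 11.7% of all genes. Other fits moved these counts, to 5 rises and 10 falls with GC and length trends removed, 5 rises and 7 falls with a replicate block within each vector and 1 rise and 6 falls with upper-quartile scaling. CBX6 rose from 122.6 and 125 to 207 and 190.5 CPM (log2 fold change 0.68, SE 0.12, adjusted p = 1.70e-04), and PCGF1, a subunit of variant PRC1, fell from 58.1 and 52.2 to 36.2 and 34.3 CPM (log2 fold change -0.65, SE 0.13, adjusted p = 8.80e-04), both in every alternative. RBBP7 rose by 0.28, and RYBP (-0.55) and CBX8 (-0.60) fell. RYBP lost the call without no-ARID1A 2 (0.0645) and without WT 1 (0.0839), CBX8 without no-ARID1A 1 (0.0635), without no-ARID1A 2 (0.195), without WT 1 (0.0575) and without WT 2 (0.219), and RBBP7 with RLE scaling (0.0508), with no filter on low counts (0.0516), with upper-quartile scaling (0.128), without no-ARID1A 1 (0.171), without no-ARID1A 2 (0.222), without WT 1 (0.207) and without WT 2 (0.0846). The PRC2 genes EZH2 (0.16), SUZ12 (0.17) and EED (-0.29) were not called. Of 10 genes reported in other systems to respond to ARID1A, 4 rose and 0 fell (40% of the list beside 11.7% of all genes, median 0.36). The list does not hold the direction reported for each gene, so these counts are no test of those reports. In a fit of only the libraries compared, 9 of them were tested and the median was 0.12. ANXA1, annexin A1, rose from 27.1 and 27.6 to 56 and 57.3 CPM (log2 fold change 1.05, SE 0.14, adjusted p = 1.97e-06) and MYC from 106 and 97.2 to 162 and 149 CPM (0.61). CDKN1A is given above, and the cystine transporter SLC7A11 went from 12.3 and 14.4 to 18.8 and 24.8 CPM (0.71), a call lost without no-ARID1A 1 (0.108) and without WT 2 (0.156). TERT (-0.35), HDAC6 (-0.13) and PIK3IP1 (0.07), also on the list, were not called.

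Of 85 cytosolic ribosomal protein genes 1 rose and 6 fell (8.24% of the list beside 11.7% of all genes, median -0.04). With GC and length trends removed the list gave 9 rises and 7 falls, and leaving out 1 library gave 5, 3, 4 and 3 falls, with a median of 0.05 without no-ARID1A 1. RPS10 fell from 50.9 and 53.8 to 19.9 and 20.6 CPM (log2 fold change -1.37, SE 0.15, adjusted p = 1.21e-07) and RPL17 from 77.3 and 89.5 to 48.8 and 48.6 CPM (-0.78), with 40.3% and 35.5% of their exonic bases overlapped by other genes, and many near-identical pseudogenes share sequence with this family. RPL7L1, a paralog of RPL7, rose (0.52). Of 77 mitochondrial ribosomal protein genes 9 rose and 1 fell (13% of the list, median 0.11), with MRPL36 the largest rise among the named ones (0.90), a call lost without no-ARID1A 2 (0.111) and without WT 1 (0.129). Of 80 nuclear-encoded respiratory chain genes 3 rose and 3 fell (7.5% of the list, median 0.05, or -0.05 without WT 1), the UQCRC2 subunit of complex III rising by 0.36, a call lost without no-ARID1A 1 (0.127), without no-ARID1A 2 (0.0854), without WT 1 (0.0697) and without WT 2 (0.0685). Of 34 proteasome genes 7 rose and 2 fell (26.5% of the list, median 0.17). PSMA2, a subunit of the core ring, fell by 1.67 on the log2 scale in every alternative, and 29.7% of its exonic bases overlap other genes. The 4 fits with 1 library left out gave 4, 1, 0 and 6 rises of mitochondrial ribosomal and 3, 0, 0 and 5 of proteasome genes, while removal of GC and length trends gave 23 and 13, and 20 rises of respiratory chain genes.

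RNAs of the mitochondrial genome moved unequally. Of 13 genes 2 rose and 3 fell: MT-ND1 went from 348 and 375 to 925 and 609 CPM (log2 fold change 1.09, SE 0.15, adjusted p = 9.69e-06) and MT-ND3 rose (0.96), while MT-CYB fell from 1058 and 1071 to 601 and 553 CPM (log2 fold change -0.88, SE 0.10, adjusted p = 1.34e-07) and MT-ND4 (-0.33) and MT-CO1 (-0.31) fell. MT-ND3 lost its call in the DESeq2 test (0.0702), without no-ARID1A 2 (0.111) and without WT 1 (0.112), and MT-ND4 and MT-CO1 lost theirs without at least 3 of the 4 libraries and once GC and length trends were removed, where the list gave 8 rises and 1 fall. Of 10 mitochondrial tRNAs tested 5 rose and 0 fell (50% called higher beside 6.5% of all genes). MT-TG, 1 of the 5, stood at 0.0743 and 0.224 CPM without ARID1A and passed the filter on low counts through groups where it was high. The count may therefore lean towards rises. MT-TC, MT-TY and MT-TN, which lie side by side on the light strand, went from 12.2 and 7.1 to 58.8 and 32.8, from 2.82 and 1.79 to 17.9 and 9.86 and from 3.35 and 1.65 to 15.9 and 13.7 CPM (log2 fold change 2.25, 2.58 and 2.57). Summed over 22 tRNA genes the level was 55.8 and 53.5 CPM without ARID1A and 168 and 110 CPM with WT. In MT-TC, MT-TY and MT-TN the level was higher in WT 1 than in WT 2. Both WT libraries lay above both no-ARID1A libraries, which their choice as largest rises required.

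Gene class and length moved with the direction of change across the whole table. Genes with under 1000 exonic bases had a median log2 fold change of -0.36, with 16 higher and 110 lower of 2648, against 0.04 for genes of 6000 bases or more, with 566 higher and 378 lower of 6674. Antisense genes by symbol gave 3 rises and 75 falls among 774 tested (median -0.43), and genes with over 50% of their exonic bases inside other genes gave 14 rises and 36 falls among 712 (median -0.30). Processed pseudogenes gave 3 rises and 30 falls among 1018. Over all genes 6.5% were called higher and 5.19% lower. Falls made up 4.15% of genes under 1000 bases, 5.06% of the class with over 50% overlap and 2.95% of processed pseudogenes. In these classes the share of falls did not exceed that of all genes, while rises were fewer (0.604%, 1.97% and 0.295%). Antisense genes had 9.69% falls and 0.388% rises. SREBF2-AS1, TMEM202-AS1 and the pseudogene HNRNPMP1 were among the 12 largest falls, SREBF2-AS1 from 9.89 and 7.55 to 1.34 and 1.64 CPM (-2.54), TMEM202-AS1 from 14 and 12.9 to 3.2 and 1.79 CPM (-2.42) and HNRNPMP1 from 2.53 and 2.92 to 0.223 and 0.598 CPM (-2.70). So was PTP4A1 (-2.22), a phosphatase gene with 80.4% of its exonic bases overlapped. With 3 and 8 counts in the WT libraries, HNRNPMP1 passed the filter on low counts through the groups where it was high. HNRNPMP1 lost its call without WT 1 (0.1). Protein-coding genes with at most 10% overlap had 1110 rises and 467 falls among 11224 (median 0.07). What sets the class pattern was not tested.

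**Figure D3:**
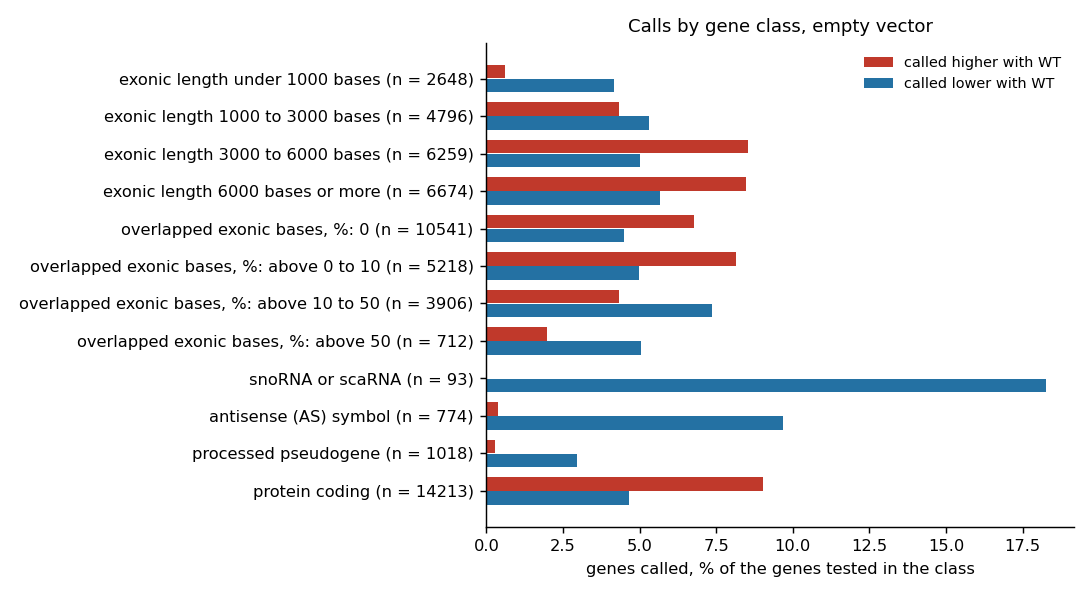
Share of the tested genes in each class that were called higher (red) or lower (blue) with WT against no ARID1A, empty vector; n is the number of genes tested in the class, and bars start at 0. Small nucleolar and Cajal body RNAs have 0 rises and 18.3% falls, antisense genes 0.388% rises and 9.69% falls, and protein-coding genes 9.03% rises and 4.67% falls.

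The same addition of WT ARID1A was measured in 4 other libraries that also received EWS-FLI1, and these share no library with the comparison above. There 3684 genes (18.1%) changed, 1981 higher and 1703 lower, or 1505 and 2062 with upper-quartile scaling. The count was 1828 and 1878 without the first and the second no-ARID1A library of that vector, and 2202 in a fit of those 4 libraries alone. Of the 1324 genes called higher without EWS-FLI1, 1306 had the same sign and 987 (74.5%) were also called higher with it, which is 49.8% of the longer list. Of the 1057 called lower, 1035 had the same sign and 717 (67.8%) were called lower, 42.1% of that list. Only 3 genes were called in opposite directions, all higher without and lower with EWS-FLI1. Across all 20377 genes, which are not independent replicates, the log2 fold changes correlated with Pearson's r of 0.464 and Spearman's rho of 0.569, and 75.3% had the same sign. KRT17 rose by 7.96 with EWS-FLI1, TNC by 3.75, SPRY4 by 3.37, INHBA by 2.60 and ANKRD1 by 2.17 on the log2 scale. HOXA13 stood at -1.68, H2BC21 at -2.29 and FOS at -1.89. Genes picked by size or by p, KRT17, TNC, SPRY4, INHBA, ANKRD1 and H2BC21 among them, had to be called the same way with EWS-FLI1. Their agreement was therefore fixed by the choice.

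In the fit without a block, 5 genes (0.0245%) differed between the vectors in their response to WT ARID1A, tested as an interaction, where 884 had an unadjusted p under 0.05. The count was 16 with a replicate block within each vector, 8 without no-ARID1A 1 and 48 without the first WT library with EWS-FLI1. The 3 chaperone genes DNAJB1, HSPA6 and HSPA1B, which are the genes called in opposite directions, rose without EWS-FLI1 and fell with it. HSPA6 stood at 11.2 and 12.3 CPM without ARID1A and 21.4 and 25 CPM with WT when EWS-FLI1 was absent, and at 4.26 and 4.06 CPM without ARID1A and 0.226 and 0.682 CPM with WT when it was present. DNAJB1 without EWS-FLI1 went from 239.6 and 236 to 342 and 292 CPM, a rise of 0.41 that was lost without no-ARID1A 1 (0.0706), without no-ARID1A 2 (0.103) and without WT 1 (0.217). HSPA1B went from 537 and 584 to 869 and 732 CPM (0.51, adjusted p = 0.03), a call lost in the DESeq2 test (0.306), with upper-quartile scaling (0.0632), without no-ARID1A 1 (0.169), without no-ARID1A 2 (0.0914) and without WT 1 (0.296). HSPA1B is nearly identical to HSPA1A, so how reads were split between them is uncertain. The remaining pair, EWSR1 and the cyclooxygenase gene PTGS2, were not called without EWS-FLI1, EWSR1 at 528 and 531 CPM without ARID1A and 495 and 559 CPM with WT (-0.01) and PTGS2 at 29.4 and 25.4 CPM without ARID1A and 28.3 and 26.9 CPM with WT (0.01), and rose with it. EWSR1 counts then include the fusion.

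**Figure D4:**
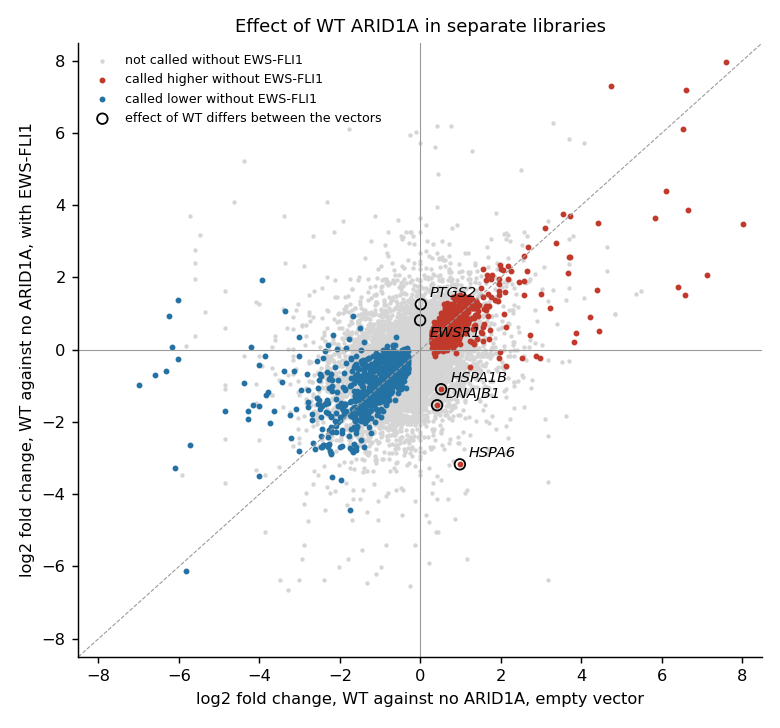
Log2 fold change of WT against no ARID1A with the empty vector (x axis) and with EWS-FLI1 (y axis) for the 20377 genes tested, from separate libraries. Red and blue points were called higher and lower without EWS-FLI1, grey points were not, the dashed line marks equal changes, and circles mark the 5 genes whose response differed between the vectors. Most called genes lie in the quadrants of equal sign, and DNAJB1, HSPA6 and HSPA1B lie below the axis on the right.

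ΔIDR1b ARID1A with the empty vector gives the response to a form that lacks part of a disordered region, at an ARID1A level that was itself higher (2787 CPM on average, 0.44, adjusted p = 6.91e-04 against WT). ΔIDR1b differed from WT in 4995 genes (24.5%), 2267 higher and 2728 lower, or 2791 and 2184 with upper-quartile scaling, and from no ARID1A in 6778 (33.3%). Both comparisons share libraries with the one above, so values are set side by side without a measure of agreement. Several rises were not called different between the forms, with means of CCN3 5.01 CPM (0.26, adjusted p = 0.597), ANKRD1 19.5 CPM (0.12, adjusted p = 0.697), INHBA 18.9 CPM (0.35, adjusted p = 0.252) and SPRY4 3.08 CPM (0.41, adjusted p = 0.479). A difference that missed the threshold does not show that the forms act alike. KRT17 had a mean of 266 CPM, lower than with WT (-0.39, adjusted p = 0.0458) and higher than without ARID1A (7.21, adjusted p = 3.55e-22). TNC and KRT75 were higher with ΔIDR1b, at 16.6 and 18 CPM (0.71, adjusted p = 0.0118, and 0.79, adjusted p = 0.00783). Other genes that rose with WT stood lower with ΔIDR1b than without ARID1A. CCN1 had a mean of 126 CPM with ΔIDR1b (-2.18, adjusted p = 3.86e-16 against WT, -1.46, adjusted p = 1.35e-12 against no ARID1A). HSPA5 had 672 CPM (-2.14, adjusted p = 3.90e-17 against WT), ATF3 599.5 CPM (-1.21, adjusted p = 1.36e-11 against WT) and DUSP5 13.4 CPM (-1.63, adjusted p = 2.27e-09 against WT). For HSPA5, ATF3 and DUSP5 the statement rests on these means beside the levels without ARID1A given above, and the p-values do not test it.

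Among the genes that fell with WT, several were lower again with ΔIDR1b. FOS had a mean of 18 CPM (-1.92, adjusted p = 1.41e-13 against WT), H2BC21 5.16 CPM (-2.29, adjusted p = 7.17e-10), ALDOA 33.2 CPM (-1.13, adjusted p = 5.65e-08) and ANKRD37 11.9 CPM (-2.35, adjusted p = 3.27e-13). HOXA13 stood at 36.3 CPM (0.23, adjusted p = 0.265) and ARID1B at 96.9 CPM (-0.04, adjusted p = 0.848), not called against WT. By list, against no ARID1A, ΔIDR1b gave 13 rises and 4 falls among 27 YAP/TEAD targets where WT gave 11 and 0. Over all genes 33.3% were called with ΔIDR1b and 11.7% with WT, so the list counts of both forms are not read against each other. For the ERK feedback genes the counts were 7 rises and 2 falls where WT gave 8 and 0, and for the HOX genes 3 and 18 where WT gave 0 and 18. Among the cytosolic ribosomal protein genes 82 of 85 were called lower with ΔIDR1b against no ARID1A (median -0.70) and 6 with WT (median -0.04). Directly against WT, 80 of the 85 were called lower with ΔIDR1b (median -0.66). The fall was not particular to this list. Against WT, 58 of 80 respiratory chain genes and 36 of 77 mitochondrial ribosomal protein genes were called lower and 0 higher. ZNF-named genes went mostly the other way, with 128 higher and 18 lower of 409. The number of genes that differed from WT was 2754 and 3436 without WT 1 and WT 2 and 2947 and 2821 without either ΔIDR1b library, and the number that differed from no ARID1A lay between 4484 and 4763. Small nucleolar RNAs, which are without a tail, stood at 70.0 and 77.5 CPM in the ΔIDR1b libraries, below the 171 and 192 CPM of WT.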

How the data were processed

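Polyadenylated RNA of ARID1A-knockout 293T cells was sequenced by the submitters. The deposited count values are whole fragments per gene, made by the authors with featureCounts 2.0.1 without strand on GENCODE 41 (GRCh38 patch 13), per the file headers. STAR, SAMtools and edgeR are named in the submitters' processing notes, with versions not given in the sources used here.

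Here edgeR 4.0.16 (R 4.3.3, limma 3.58.1) was run on all 12 libraries with 1 mean per group, TMM factors and a filter that kept genes with enough counts (minimum count 10, minimum total 15), which held 99.79% to 99.87% of the counts. Quasi-likelihood tests were adjusted by Benjamini-Hochberg over all genes tested and called at 0.05. The common biological variation was 10.1%, and depth was 11702251 to 14445379 counts. Intervals and floors cover counting error only. Tested on simulated data for WT against no ARID1A with the empty vector (19500 genes), the procedure called 76% of 2-fold and 38% of 1.5-fold changes, and 7 of 19300 unchanged genes. The changed genes were few and excluded those of the lowest level. The simulated libraries were independent, whereas deviations in the real ones followed the repeat numbers within a vector, so these rates may not hold for the real data. Alternatives were DESeq2 1.42.0, other scalings, no filter, only the libraries compared, replicate blocks, GC and length offsets (GENCODE 29), and leaving out each library. The gene lists, cell type markers and members were chosen with earlier results of these data known. Named genes were ARID1A, the 12 largest rises and falls, the 4 smallest p in each direction above 50 CPM, and up to 4 called members per direction of each list. CCN4, CNN1, IFNL1 and SERTAD4-AS1 were also picked for at most 3 counts over both libraries of 1 group and many more over both of the other. Picks by size or by p came from genes of at least 2 CPM, called the same way with EWS-FLI1 and without overlap between the groups' libraries. Other genes, the uncalled list members given for comparison included, were chosen after their values were seen. Counting ignored strand, so overlapping and antisense genes cannot be told apart.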

Additional observations from a re-analysis of the deposited data

Results flagged for a closer look

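In 5 genes the effect of WT ARID1A differed between the vectors, tested as an interaction in edgeR over all 20377 genes, and each value here is the log2 effect with EWS-FLI1 minus that with the empty vector. The difference was -1.95 for DNAJB1 (SE 0.16, adjusted p = 7.69e-10), from an effect of 0.41 without to -1.54 with EWS-FLI1. It was -4.15 for HSPA6 (SE 0.43, adjusted p = 3.22e-07). HSPA1B had a difference of -1.61 (SE 0.23, adjusted p = 2.61e-04) and is a gene nearly identical to HSPA1A whose call was lost in the DESeq2 test. The difference was 0.822 for EWSR1 (SE 0.12, adjusted p = 6.17e-04), whose counts include the fusion, and 1.25 for PTGS2 (SE 0.20, adjusted p = 0.00145).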

How the results depend on the processing

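WT against no ARID1A changed 3862 genes with GC and length trends removed, 3606 with a replicate block within each vector and 4242 with both, against 2381 in the fit reported, and 802 to 1436 when 1 library was left out. With EWS-FLI1, 2202 genes changed in a fit of those libraries alone and 1828 to 3795 without 1 library. The difference between the vectors gave 16 genes with that block, 26 with trends removed as well, and 5 to 48 without 1 library. ΔIDR1b differed from WT in 2754 to 3436 genes and from no ARID1A in 4484 to 4763 without 1 library. The causes were not tested, beyond the fewer libraries of the last fits. Upper-quartile scaling turned the balance of the main comparison from 1324 higher and 1057 lower to 898 and 1381. Among genes recomputed one by one, none changed sign in these alternatives. Of 183 named genes, 163 kept their call in the alternatives with all libraries and 105 in every one.

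Whether equal repeat numbers pair libraries was checked by correlating deviations from group means over 10695 genes. Pairs of groups with the same vector gave r of 0.104 to 0.412 and those with different vectors were all negative, down to -0.223, so the deviations follow the numbers within a vector and not across vectors. The labels do not say what a number marks, and the counts reported are without a block. The block over all libraries gave 2351 genes. With 2 libraries a group, 1.5-fold changes were often missed on simulated data.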

Other observations

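Of 64 axon guidance ligands and receptors, 8 rose and 2 fell (median 0.06), 15.6% of the list beside 11.7% of all genes, with 6 rises and 3 falls under upper-quartile scaling and 5, 2, 3 and 5 rises without no-ARID1A 1, no-ARID1A 2, WT 1 and WT 2. SEMA7A, a membrane-anchored semaphorin, rose from 9.14 and 7.78 to 19.9 and 15.7 CPM (log2 fold change 1.07, SE 0.19, adjusted p = 2.73e-04), in every alternative run. The semaphorin co-receptor PLXNA2 rose from 3.12 and 2.84 to 6.84 and 6.87 CPM (1.20) and lost the call without no-ARID1A 2 (0.0515). Of 30 neuronal genes 5 rose and 1 fell (20% of the list, median 0.10). Most of these rises were lost when no-ARID1A 1, no-ARID1A 2 or WT 1 was left out. The adhesion molecule L1CAM rose from 9.07 and 12.7 to 18.7 and 20.8 CPM (0.86) and lost the call without no-ARID1A 1 (0.0982).

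Of 27 nephron and kidney development factors 3 rose and 0 fell (median 0.00), 11.1% of the list beside 11.7% of all genes, and the rises numbered 1 with upper-quartile scaling and 0, 0, 0 and 1 without each library. Of 25 cholesterol synthesis and SREBP2 target genes 2 rose and 1 fell (12% of the list, close to the 11.7% of all genes, median 0.06), or 2 and 2 with upper-quartile scaling. The regulator SREBF2 rose from 209 and 210.4 to 289 and 265 CPM (0.40) and lost the call without no-ARID1A 1 (0.0636), without no-ARID1A 2 (0.0654) and without WT 1 (0.102). Of 409 ZNF-named zinc finger genes 37 rose and 22 fell (14.4% of the list beside 11.7% of all genes, median 0.08). That balance turned to 26 and 32 with upper-quartile scaling. ZNF697 rose from 30.1 and 30.2 to 56.1 and 55.6 CPM (log2 fold change 0.89, SE 0.12, adjusted p = 6.83e-06) and ZNF317 from 43.8 and 35.2 to 67.6 and 65.4 CPM (0.75), both in every alternative run. The antisense RNA SERTAD4-AS1 had 3 counts over both no-ARID1A libraries and 41 over both WT libraries, a ratio of 13.7 (95% counting interval 4.36 to 69.0). SERTAD4-AS1 was picked for that gap, so a large ratio was fixed by the choice. Its call was lost without no-ARID1A 2 and without WT 2.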
